A study of Homo sapiens with 14 samples.

Results

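GLTSCR1 binding sites were compared between 48 h and 96 h of exposure to WA-68 in HS-SY-II cells, a human line established from a synovial sarcoma that carries the SS18::SSX fusion. Sites were mapped by chromatin immunoprecipitation followed by sequencing (ChIP-seq), and each time was represented by 1 library and its deposited peak list. Entries with identical coordinates were joined into 1 region, and contigs other than chromosomes 1 to 22, X and Y were left out, which gave 13677 regions at 48 h and 15611 at 96 h. These 29288 regions belong to 183499 in the 9 peak lists of the series. A region counted as shared when it overlapped a region of the other time by at least 1 bp, and otherwise as 48 h only or 96 h only. Both libraries came from cells given 100 nM WA-68, a PROTAC that directs BRD9 to degradation, with the genotype given as WT. The other GLTSCR1 lists used here came from cells given the vehicle DMSO and from cells given the same dose for 12 or 24 h. An anti-HA antibody against a tagged SS18::SSX fusion gave the 4 fusion lists (DMSO, 12, 24 and 48 h). The labels do not say how the tag was introduced, nor how long the DMSO cells were kept, so time in culture cannot be told apart from time of exposure.

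GLTSCR1, encoded by BICRA, is the subunit that with BRD9 distinguishes the GBAF form (also called ncBAF) from the other BAF-family chromatin remodellers, which move nucleosomes at promoters and enhancers. BRD9 is a bromodomain protein and a scaffold of this complex, and synovial sarcoma cells depend on it. SS18 is a subunit of both BAF and GBAF, so the SS18::SSX fusion can enter either complex and is drawn to Polycomb-marked chromatin through its SSX part. BRD9 protein was not measured in these files, and the peak lists show where GLTSCR1 was called, not how much of it was present in the cell.

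Promoters are shown first for 4 genes whose promoter window overlapped a region of the 96 h list and of the DMSO list but none of the 48 h list. RPL4 encodes a ribosomal protein of the large subunit, PHC1 a Polycomb repressive complex 1 subunit, IER2 an immediate early response protein and HSP90AB1 a chaperone. HOXA9, a body-axis transcription factor gene whose promoter was called at 48 h and not at 96 h, and ID1, a BMP target gene called at both times, are set beside them. Each is a window of 300 bases from RefSeq on GRCh38.p14 around 1 annotated start, written 5′ to 3′ on the gene's strand. Capitals mark the ETS-type motif CCGGAAG, the SP/KLF-type motif CCGCCC and the TATA-box letters TATAAA on either strand, and matches may overlap. The windows lie at chr15:66504806-66505105 (RPL4, minus strand), chr12:8914259-8914558 (PHC1, plus strand), chr19:13150161-13150460 (IER2, plus strand), chr6:44246851-44247150 (HSP90AB1, plus strand), chr7:27165488-27165787 (HOXA9, minus strand) and chr20:31605039-31605338 (ID1, plus strand).
RPL4: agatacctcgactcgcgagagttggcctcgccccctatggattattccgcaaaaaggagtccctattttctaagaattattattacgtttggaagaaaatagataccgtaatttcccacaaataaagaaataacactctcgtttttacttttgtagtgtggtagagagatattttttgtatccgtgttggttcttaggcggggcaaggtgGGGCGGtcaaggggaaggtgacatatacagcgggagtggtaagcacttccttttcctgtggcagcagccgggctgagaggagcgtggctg
PHC1: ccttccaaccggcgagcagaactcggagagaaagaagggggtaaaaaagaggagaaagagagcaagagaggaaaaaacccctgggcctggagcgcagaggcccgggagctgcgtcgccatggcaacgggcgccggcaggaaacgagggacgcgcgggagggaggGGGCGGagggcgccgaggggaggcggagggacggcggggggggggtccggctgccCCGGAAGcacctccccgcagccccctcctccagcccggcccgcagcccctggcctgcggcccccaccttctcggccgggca
IER2: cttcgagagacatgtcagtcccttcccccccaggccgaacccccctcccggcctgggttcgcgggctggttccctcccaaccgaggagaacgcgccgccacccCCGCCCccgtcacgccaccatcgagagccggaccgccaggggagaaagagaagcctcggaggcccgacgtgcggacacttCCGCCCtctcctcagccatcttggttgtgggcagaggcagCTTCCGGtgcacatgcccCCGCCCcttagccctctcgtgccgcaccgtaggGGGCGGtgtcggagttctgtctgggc
HSP90AB1: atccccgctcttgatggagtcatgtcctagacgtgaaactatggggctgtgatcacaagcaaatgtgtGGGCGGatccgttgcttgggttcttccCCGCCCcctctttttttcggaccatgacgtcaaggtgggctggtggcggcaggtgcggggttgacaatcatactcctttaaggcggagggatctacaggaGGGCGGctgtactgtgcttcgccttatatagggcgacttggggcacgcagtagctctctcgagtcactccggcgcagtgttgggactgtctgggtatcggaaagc
HOXA9: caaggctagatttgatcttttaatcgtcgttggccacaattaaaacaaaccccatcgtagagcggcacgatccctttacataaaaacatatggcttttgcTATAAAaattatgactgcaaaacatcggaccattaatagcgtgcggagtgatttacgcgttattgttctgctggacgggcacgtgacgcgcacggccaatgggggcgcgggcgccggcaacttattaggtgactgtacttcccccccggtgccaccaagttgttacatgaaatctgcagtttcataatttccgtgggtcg
ID1: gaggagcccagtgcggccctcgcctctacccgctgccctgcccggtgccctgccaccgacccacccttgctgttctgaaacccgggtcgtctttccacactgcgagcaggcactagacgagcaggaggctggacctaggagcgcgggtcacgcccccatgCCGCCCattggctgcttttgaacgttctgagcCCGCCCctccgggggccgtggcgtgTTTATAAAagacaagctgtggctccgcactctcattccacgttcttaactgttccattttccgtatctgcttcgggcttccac
The ETS-type letters occur in the PHC1 and IER2 windows and in none of the other 4 printed. SP/KLF-type letters occur in all but HOXA9, and TATAAA in HOXA9 and ID1. Over the 22078 promoter windows of protein-coding genes, the 3 motifs were found in 12.8%, 56.3% and 9.50%, so single matches are common and describe only the letters.

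Most 48 h regions were still called at 96 h. Of the 13677 regions at 48 h, 9505 were overlapped at 96 h (69.5%, 95% interval 68.7 to 70.3), and 4172 were 48 h only. Of the 15611 regions at 96 h, 9289 overlapped a 48 h region (59.5%, 58.7 to 60.3) and 6322 were 96 h only (40.5%, 39.7 to 41.3). Intervals of shares are exact Clopper-Pearson intervals, and those of differences in percentage points are normal approximations. They cover counting error alone, neighbouring regions are not independent, and with 1 library a time there was no replicate error and no test between times. The 96 h list was the longer of the pair, and with only its 13677 most significant regions the 2 shares were 65.7% of 48 h regions and 63.4% of 96 h regions. Peak lists do not give read depth, and a missing call means only that a site was below the caller's threshold.

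Regions of 1 time alone were weak and narrow within their lists. The authors' fold, the enrichment of a summit over local background, had a median of 4.53 in 96 h only regions and 5.39 in shared regions of the 96 h list. Median widths were 341 bp and 545 bp. In the 48 h list the median folds were 4.58 for 48 h only and 5.34 for shared regions, with widths of 317 and 456 bp. The 96 h only share was 50.3% in the lowest decile of 96 h fold and 6.92% in the highest, and the 48 h only share was 38.5% and 3.51% in the same deciles of its own list. All 76 regions over 5 kb at 48 h and all 68 at 96 h were shared. The widest 96 h only region measured 2025 bp. Over the 9289 shared 96 h regions the strongest summits of the 2 times lay a median of 75.0 bp apart, with 72.4% within 250 bp. For the 4740 with 1 summit in both lists the values were 37.0 bp and 93.0%.

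**Figure D1:**
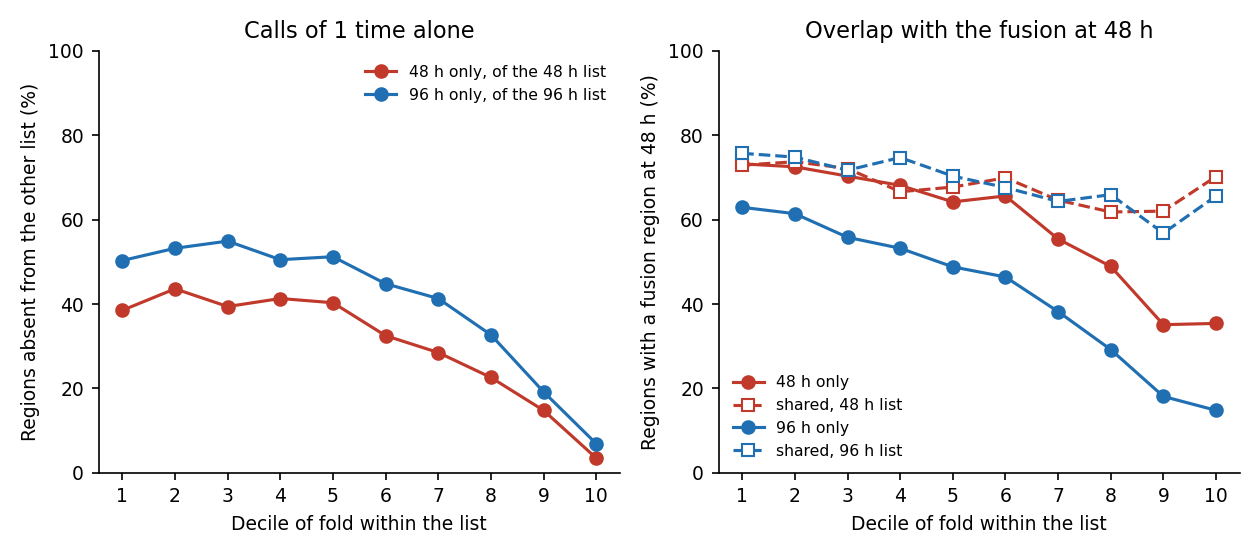
Left, percentage of regions in each decile of the authors' fold (x axis, 1 lowest, 10 highest, within each list) that the other time lacks. Right, percentage of regions in the same deciles that overlap a fusion region at 48 h, with filled circles for regions of 1 time and open squares for shared regions. The 96 h only share falls to 6.92% in decile 10, where 14.8% of 96 h only and 65.6% of shared 96 h regions carried the fusion.

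The strongest sites of both times show what stayed in place. RFX1, a transcription factor gene on chromosome 19, had folds of 48.6 at 48 h and 32.7 at 96 h from regions at 14005816 to 14006511 and 14005681 to 14006500. Before that its folds were 38.1 (DMSO), 42.0 (12 h) and 31.6 (24 h), so it was strong in all 5 lists. At CRIP2, a LIM-domain gene on chromosome 14, the folds were 27.6 at 48 h and 36.8 at 96 h. KERA, which encodes the matrix proteoglycan keratocan, lay in a region of 50.3 kb at 48 h and 50.9 kb at 96 h. JUND, an AP-1 subunit gene, had 24.0 and 9.56. HOXB9 had 23.5 and 5.68, but these came from 2 separate regions at opposite ends of the gene. A fold moves with the depth and background of its library, so these pairs locate a gene within its list and show no rise or fall. Away from gene ends, one of the strong shared regions of the 48 h list lay inside INPP5A (chromosome 10, 132637707 to 132638233). Its folds were 36.9 at 48 h, 23.5 at 96 h and 3.51 in DMSO.

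About as many 96 h only regions were already in the DMSO list as were not. Of the 6322, 2988 overlapped a DMSO region (47.3%, 46.0 to 48.5), against 75.1% of shared 96 h regions. The counterpart was alike: 2057 of the 4172 regions of 48 h only overlapped a DMSO region (49.3%, 47.8 to 50.8). The 12 h list overlapped 40.1% of 96 h only and 34.5% of 48 h only regions, and the 24 h list 35.8% and 38.7%. Thus 96 h only regions were found more often at 12 h than at 24 h and 48 h only regions the other way round, with intervals that do not overlap between the 2 lists for either class.

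**Figure D2:**
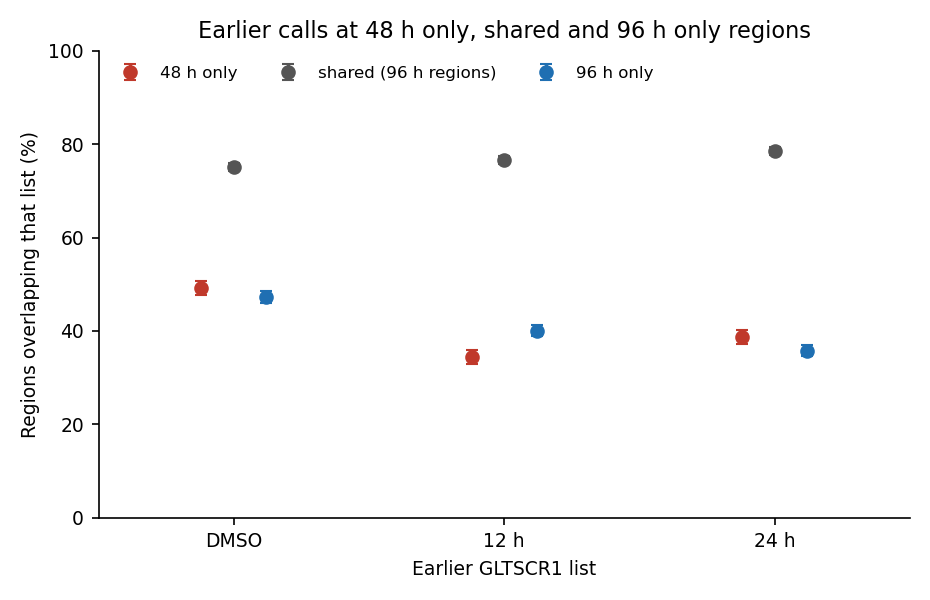
Percentage of regions (y axis) of 48 h only, shared and 96 h only that overlap the GLTSCR1 list of DMSO, 12 h or 24 h (x axis), with exact 95% intervals for counting error. Shared regions lie at 75.1 to 78.5% and the regions of 1 time at 34.5 to 49.3%.

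The history of the 96 h only regions was mixed. A total of 966 (15.3%) had been called in the DMSO, 12 h and 24 h lists and were missing at 48 h alone. Another 824 had been called in DMSO and at 12 h but not at 24 h, 801 (12.7%) in DMSO alone, and 397 (6.28%) in DMSO and at 24 h but not at 12 h. A further 1318 were not in DMSO but had been called at 12 or 24 h. The remaining 2016 (31.9%, 30.7 to 33.1) were in no earlier GLTSCR1 list, which makes 96 h their first GLTSCR1 call. Among 48 h only regions, 1253 (30.0%) were in no earlier list and 600 (14.4%) in all 3.

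Seen from the DMSO list, 10253 of its 18037 regions were not called at 48 h, and 24.2% of those (23.4 to 25.1) were called at 96 h. Of the 7784 DMSO regions that were called at 48 h, 80.7% were called at 96 h. Strength in DMSO went with this: with the DMSO list divided by fold into 4 groups of nearly equal size, 40.8% of the strongest regions missing at 48 h and 19.9% of the weakest were called at 96 h. So did the intermediate times, since 53.9% of those called at both 12 and 24 h and 11.8% of those called at neither were in the 96 h list. With a fusion region in DMSO the share was 29.1%, and without one it was 20.0%. At gene ends it was 21.3% (20.1 to 22.5), lower than the 26.0% inside gene spans and the 27.1% outside them.

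Gene ends held more of the calls that appeared at 96 h than of the calls that both times share. A gene end here is the 1 kb on either side of the first and last base of a protein-coding gene span, so it includes downstream ends and misses internal promoters. Of 96 h only regions 23.6% (22.5 to 24.7) lay at a gene end, against 17.2% (16.4 to 18.0) of shared and 17.0% (15.9 to 18.2) of 48 h only regions. Compared within deciles of fold, the 96 h only share exceeded the shared one by 6.34 percentage points (4.97 to 7.71), while for 48 h only the difference was -0.130 points (-1.56 to 1.30). Most gene-end regions of 96 h only were also called in DMSO. Of 96 h only regions in the DMSO list 36.2% lay at gene ends, against 12.2% (10.8 to 13.7) of those in no earlier list and 24.3% of 48 h only regions in the DMSO list. Put the other way, 1081 of the 1491 gene-end regions of 96 h only (72.5%) overlapped a DMSO region, against 40.3% inside gene spans and 38.6% outside them. The other classes had the same order, with 70.3%, 44.9% and 45.1% for 48 h only and 91.0%, 72.5% and 71.1% for shared 96 h regions. The DMSO list was itself rich in such sites, with 6371 of its 18037 regions at gene ends.

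**Figure D3:**
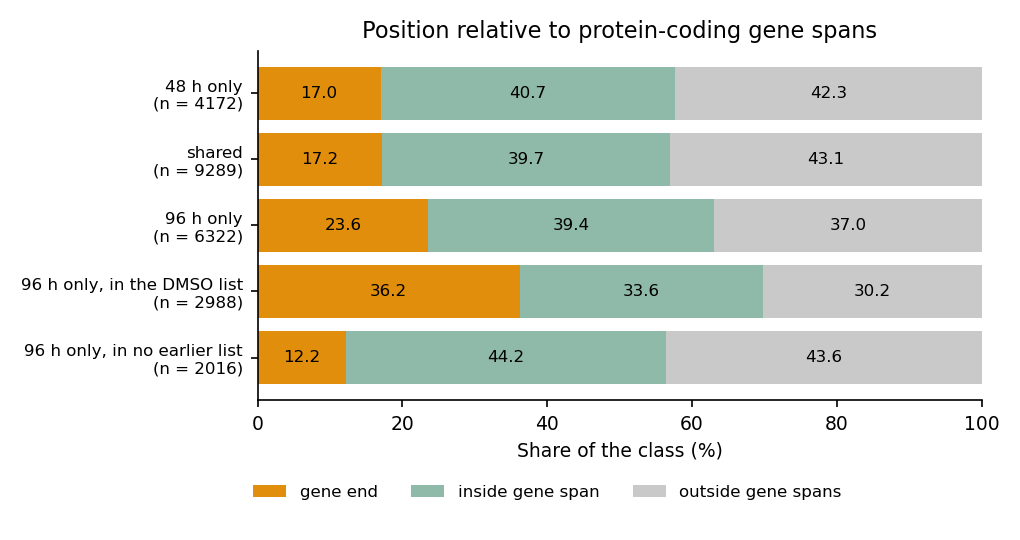
Share of each class (x axis, %) that lies at a gene end, elsewhere inside a protein-coding gene span, or outside the spans. Gene ends make up 36.2% of the 96 h only regions that were in the DMSO list and 12.2% of those in no earlier list.

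The 2 earlier steps of the course differed in this respect. Regions that were new from 12 to 24 h lay at gene ends in 10.8% of 5992 cases and those new from 24 to 48 h in 18.0% of 4647. Regions no longer called lay there in 44.9% of 6708 cases from 12 to 24 h and in 22.6% of 6581 from 24 to 48 h. From 48 to 96 h the share was higher among new regions (23.6%) than among those no longer called (17.0%), the reverse of both earlier steps. These steps share lists with each other and are set side by side only.

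The sites that appeared at 96 h less often carried the fusion at 48 h. A fusion region of the 48 h list overlapped 48.7% of 96 h only regions, 67.7% (66.7 to 68.6) of shared 96 h regions and 64.3% (62.8 to 65.8) of 48 h only regions. Within deciles of fold the difference from shared regions was -21.6 points (-23.2 to -20.0) for 96 h only and -4.58 points (-6.35 to -2.81) for 48 h only. For 96 h only it was wider at gene ends, where 28.6% of these and 60.3% of shared 96 h regions carried the fusion. For 48 h only the values there were 56.5% and 59.7% of shared 48 h regions. Inside gene spans the values were 54.5% for 96 h only and 71.4% for shared regions. The fusion lists of DMSO, 12 h and 24 h gave 52.3%, 51.4% and 47.5% for 96 h only, against 69.1%, 67.4% and 62.9% for shared regions. No fusion list at 96 h was used here, so whether the fusion was at these sites at 96 h was not tested. With strongest summits within 250 bp in place of overlap, the fusion values for 96 h only and shared regions were 17.0% and 27.7%.

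Regions of 96 h only lay farther from the 48 h map than the reverse, but the 48 h list was shorter. These distances were not computed at equal list lengths. Of 96 h only regions 25.2% were within 1 kb of a 48 h region, and the median distance was 10.4 kb. Of 48 h only regions 32.5% were within 1 kb of a 96 h region, at a median of 3.80 kb. Without the 96 h only regions that lay so close, an alternative chosen after seeing the data, 43.4% were in the DMSO list, 26.0% were at gene ends and 38.3% carried the fusion. By chromosome, with Y aside (4 regions at 96 h, all 96 h only), the 96 h only share was highest on chromosomes 22 (55.7% of 221 regions, 48.8 to 62.3) and 19 (53.7% of 449, 48.9 to 58.4). It was lowest on chromosomes 21 (28.6% of 280) and 8 (32.1% of 872).

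Single regions away from gene ends illustrate each history. On chromosome 14 at 21557341 to 21557905, 10.6 kb from the olfactory receptor gene OR10G3, the DMSO fold was 6.07, followed by 6.89 after 12 h and 3.02 after 24 h, with no call after 48 h and 14.8 at 96 h. A region inside FMN1, a formin gene (chromosome 15, 32994415 to 32995169), had 4.33, 7.71 and 5.67, none at 48 h and 12.6 at 96 h. Away from gene ends, these 2 sites thus led the 96 h only regions of the DMSO list while missing at 48 h alone. The strongest 96 h region without any earlier GLTSCR1 call lay 28.7 kb from MOB2 on chromosome 11 (1515445 to 1515855, fold 14.8), and the next 247 kb from RPL38 on chromosome 17 (73956416 to 73956949, 9.95). Both had earlier fusion calls, with folds of 3.15 (12 h) and 5.11 (24 h) near MOB2 and 3.67 (DMSO) near RPL38. In the other direction, a region inside PLA2R1, a phospholipase A2 receptor gene (chromosome 2, 159968272 to 159968597), had folds of 10.0 (12 h), 8.62 (24 h) and 11.5 (48 h), and was called neither in DMSO nor at 96 h.

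At the level of genes, 2230 of 20037 protein-coding genes had a GLTSCR1 region at an end at 48 h and 3037 at 96 h, against 6234 in DMSO. Both times shared 1699 genes (8.48% of all genes), 531 were called at 48 h alone (2.65%) and 1338 at 96 h alone (6.68%). Of the 1338 genes, 1061 had been called in DMSO (79.3%), 871 of them also at 12 h and 464 at 12 and 24 h, while 152 were in no earlier list. Of the 531 genes of 48 h only, 399 had been called in DMSO (75.1%). Of the 4239 genes called in DMSO and not at 48 h, 25.0% were called at 96 h. Of the 2230 genes called at 48 h, 76.2% were. The 48 h fusion list had a region at an end of 30.0% of the 96 h only genes, 62.0% of the genes of both times and 56.9% of the 48 h only genes. Over all 20037 protein-coding genes, 3732 had such a region. For 25 of the 1338 genes (1.87%) the 96 h region overlapped a 48 h region that lay outside the window.

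MYADM and FOS are among those 25 and have the highest 96 h folds of the genes called in DMSO and at 96 h but not at 48 h. MYADM, a myeloid-associated membrane protein gene on chromosome 19, had a DMSO fold of 35.8, then 32.5 after 12 h, 4.69 after 24 h and 31.2 at 96 h. At FOS, an AP-1 subunit gene on chromosome 14, they were 27.6, 22.2, 3.92 and 19.4. For both genes what is missing at 48 h is thus a call in the window and not one anywhere under the 96 h region. STXBP5, a syntaxin-binding protein gene on chromosome 6, had no 48 h region under its 96 h region, which lay beyond the upper end of its span at 147390960 to 147391348. Its folds were 8.49, 11.6, 11.4 and 13.1 in the DMSO, 12 h, 24 h and 96 h lists. TMEM255B on chromosome 13 had 4.64 in DMSO and 11.6 at 96 h and none between, and CFAP276 on chromosome 1 had 4.29, 8.94, 3.89 and 11.3 without 48 h. STXBP5, TMEM255B and CFAP276 were thus the strongest of these genes with no 48 h call anywhere under the 96 h region.

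Genes called at 96 h and neither in DMSO nor at 48 h numbered 277. TSC22D3, a glucocorticoid-induced leucine zipper gene on the X chromosome, had folds of 14.5 (24 h) and 25.0 (96 h), and its 96 h region also touched a 48 h region beyond the window. ITGB3BP, a centromere protein gene on chromosome 1 (63441533 to 63442338), had folds of 5.97 (12 h), 4.66 (24 h) and 10.9 (96 h). The serine protease gene HPN on chromosome 19 had 7.07, 6.66 and 8.75 at the same times. JOSD2 and ASPDH share 1 region on chromosome 19, with 6.59 at 12 h and 8.51 at 96 h. HAO2, LOC124900173 and CFAP69 completed the named set with 96 h folds of 7.61 to 7.67.

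Among the strongest genes called at 48 h and not at 96 h were 3 developmental regulators with a fusion call in every fusion list. MAF, a bZIP transcription factor gene on chromosome 16, had GLTSCR1 folds of 3.52 (DMSO), 10.0 (24 h) and 14.3 (48 h), and fusion folds of 10.9 to 14.4 in all 4 fusion lists. HOXA9 had 4.55 in DMSO and 11.6 at 48 h, with a fusion fold of 17.6 at 48 h. The 11.6 came from the downstream end of the gene. Its promoter window had 4.55 in DMSO, 4.26 at 48 h and no call at 96 h. NKX2-2, a homeobox gene on chromosome 20, had 9.05 at 48 h and a fusion fold of 15.5. The strongest 48 h region of each of these 3 genes overlapped a 96 h region outside the window. For those regions the missing call is again one of the window. It was not so for FPGT, FPGT-TNNI3K and LRRIQ3, which share the region at 74197929 to 74198242 on chromosome 1 (9.37 at 48 h), or for the palmitoyltransferase gene ZDHHC5 on chromosome 11 (8.49). None of these 4 genes had a fusion call in any list. CA2, a carbonic anhydrase gene on chromosome 8, had a GLTSCR1 fold of 8.71 at 48 h from a region that no 96 h region overlapped, and fusion folds of 4.83 to 7.26 in all 4 fusion lists.

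Gene lists drawn up from general knowledge were read against the 25.0% of all genes that were called in DMSO, missing at 48 h and called at 96 h. Lists are small, and no list was tested. Immediate early genes, which respond within minutes to growth factors and stress, had 18 of 23 members called in DMSO. From there through 12, 24, 48 and 96 h the number called was 16, 8, 6 and 13. All 20037 protein-coding genes had the same order of fall and rise, with 6234 called in DMSO and then 5321, 2941, 2230 and 3037. Of the 12 called in DMSO and not at 48 h, 7 were called at 96 h. These were FOS, whose 96 h region overlapped a 48 h region outside the window, and EGR3, IER2, IER3, DUSP1, MCL1 and CCN1. DUSP1, a MAP kinase phosphatase gene, had folds of 5.59, 7.79, 5.03 and 5.62 in DMSO, at 12, 24 and 96 h. MCL1, an anti-apoptotic BCL2 family gene, had 5.49, 6.13, 5.14 and 6.86. FOSB was called at 12 h (5.85) and 96 h (5.73) only. JUND, KLF2, KLF4, KLF6 and SRF were called at both times, and FOSL2 at 48 h alone. The count was 5 of 12 with the 96 h list shortened to the 48 h length or with stricter significance in every list. With windows of 500 bp it was 4 of 10, and with windows of 3 kb it was 5 of 8.

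Polycomb genes encode the complexes that place H3K27me3 and H2AK119ub. Of 28, 20 were called in DMSO, 11 at 48 h and 15 at 96 h, against 6234, 2230 and 3037 of all 20037 genes. Of the 9 Polycomb genes that were in DMSO and not at 48 h, 5 were called at 96 h. PHC1 had folds of 5.77 (DMSO), 5.67 (12 h) and 8.54 (96 h), from the region on chromosome 12 at 8913865 to 8914559 that covers the promoter printed above. SUZ12, a core PRC2 subunit gene, had 8.51, 6.37 and 5.60 at these times, and RNF2, the PRC1 ubiquitin ligase gene also known as RING1B, had 9.59, 4.53 and 4.67. KDM2B and YAF2, subunits of variant PRC1, were the others. EZH2, JARID2, MTF2, BCOR and 6 more were called at both times, and RING1 at 48 h alone. Under the 4 alternatives run for the lists the share lay between 54.5% and 62.5%.

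**Figure D4:**
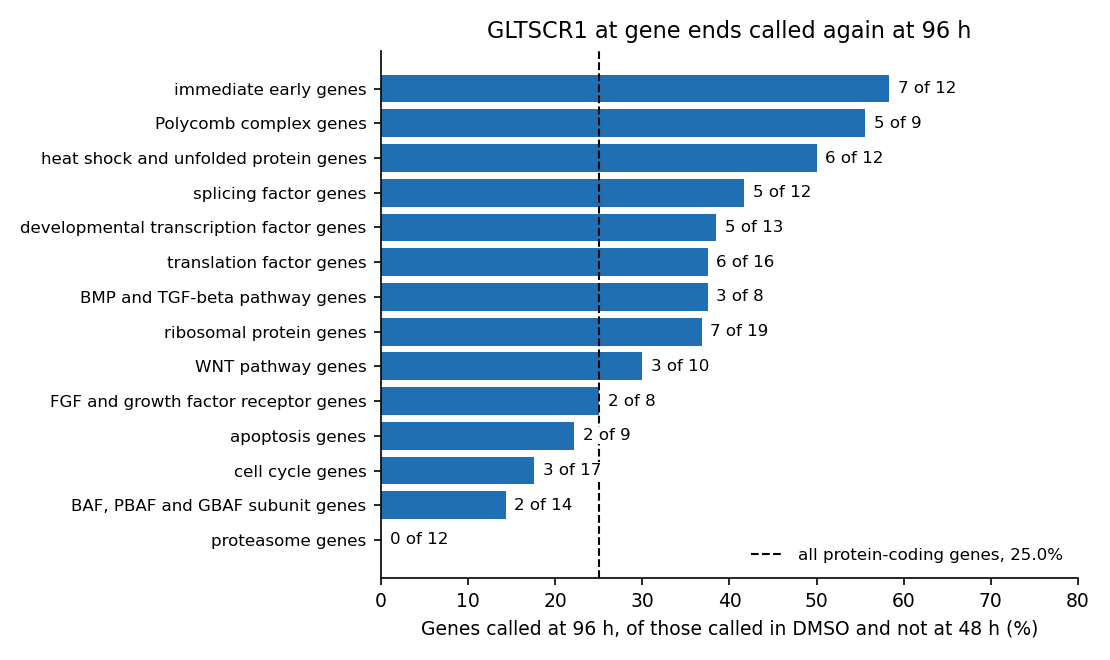
Percentage of genes called at 96 h among those called in DMSO and not at 48 h (x axis), for each list with at least 8 such genes, with the counts beside the bars. The dashed line marks 25.0%, the share over all protein-coding genes. Immediate early genes (7 of 12), Polycomb genes (5 of 9) and heat shock genes (6 of 12) lie farthest above it and proteasome genes (0 of 12) farthest below.

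At 48 h a GLTSCR1 call stood at 6 of 28 ribosomal protein, 4 of 24 translation factor, 11 of 26 splicing factor and 8 of 24 heat shock and unfolded protein response genes. Over all protein-coding genes it was 2230 of 20037. Some members of each list missing at 48 h were called again at 96 h. Ribosomal protein genes had a GLTSCR1 call at 25 of 28 in DMSO, and 12, 24, 48 and 96 h of WA-68 gave 23, 16, 6 and 13. None of these 28 was called at 48 h alone, but the list does not hold every ribosomal protein gene. RPL22, which is outside it, was called at 48 h (5.53) and not at 96 h. Of the 19 listed genes that were in DMSO and not at 48 h, 7 were called at 96 h, among them RPL4, RPL7A, RPL13A, RPL19, RPS19 and RPSA. RPL4 (chromosome 15, 66504945 to 66505359) had a fold of 4.69 in DMSO, 4.50 and 4.37 after 12 and 24 h, and 7.41 at 96 h. Translation factor genes, a list that also holds the nucleolar protein genes FBL, NPM1, NCL and NOP56, had 6 of 16. Among the 6 was FBL, the fibrillarin gene of ribosomal RNA methylation, with 6.69, 8.02, 5.27 and 9.51 at the same times. Splicing factor genes had 5 of 12, with HNRNPD at 7.70, 11.2, 5.43 and 7.10. Heat shock and unfolded protein response genes had 6 of 12, with HSP90AB1 at 4.78 (DMSO), 9.88 (12 h) and 6.07 (96 h). The last count was 4 of 12 with the shortened 96 h list and 4 of 15 with stricter significance. Proteasome genes stood at the other end: 13 of 26 were called in DMSO, PSMB2 alone at 48 h and PSMD3 alone at 96 h, and none of 12 was called again.

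**Figure D5:**
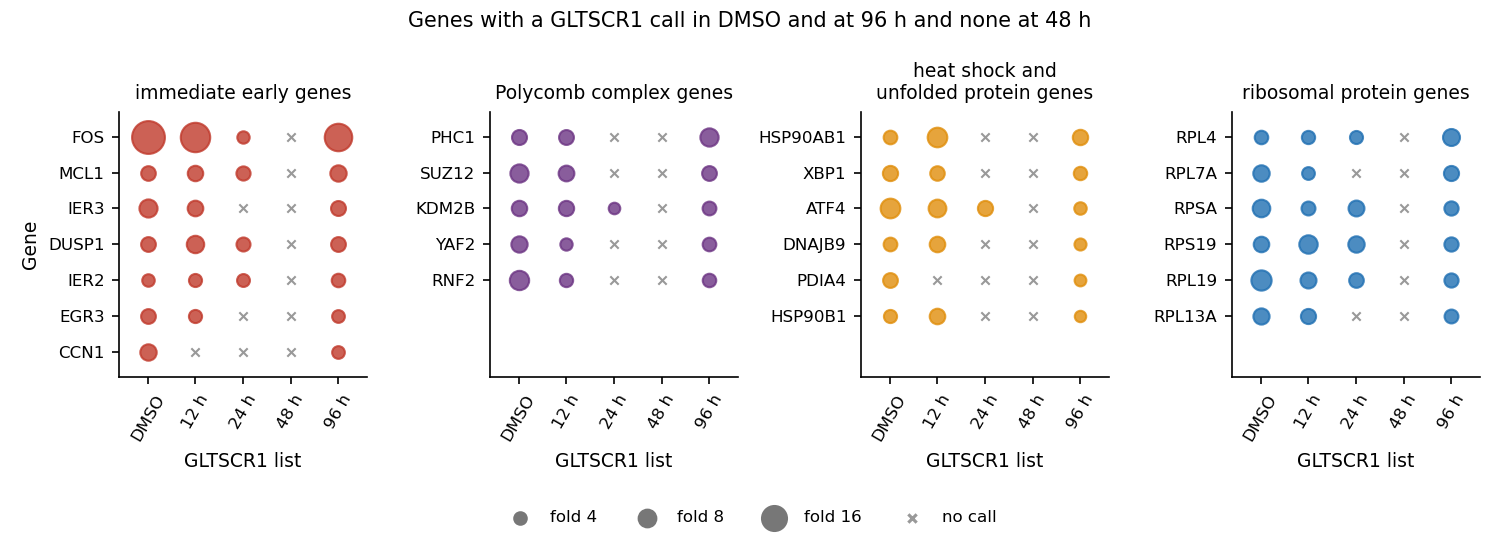
GLTSCR1 calls at the ends of single genes (y axis) in the 5 GLTSCR1 lists (x axis) for members of 4 lists called in DMSO and at 96 h but not at 48 h, of which 1 ribosomal protein gene is left out. Dot area is proportional to the authors' fold within each list and crosses mark no call, so the empty 48 h column is set by the choice of genes. FOS has the highest folds (27.6 in DMSO, 19.4 at 96 h), but its 96 h region overlaps a 48 h region outside the window. Several genes also lack a 24 h call.

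Counts of genes called again varied among cell cycle and signalling lists. Of cell cycle genes, 3 of 17 missing at 48 h were called at 96 h (CDK4, MCM5 and AURKB), and CCND2, CCNE1 and CCNE2 were called at 48 h and not at 96 h. The strongest 48 h region of CCND2 overlapped a 96 h region outside the window, unlike those of CCNE1 and CCNE2. MCM5, a replicative helicase gene on chromosome 22, had a fold of 13.1 in DMSO, 8.24 and 7.46 after 12 and 24 h, and 8.99 at 96 h. WNT pathway genes had 3 of 10 called again and differed between the times in both directions. WNT3A, WNT5A, FZD1, TCF7L1 and LEF1 were called at 48 h alone, WNT2, FZD2 and LRP5 at 96 h alone, and 7 at both. FZD2, a WNT receptor gene on chromosome 17, had 12.9, 7.54, 4.88 and 7.05 in the DMSO, 12 h, 24 h and 96 h lists. LEF1, a nuclear effector of the pathway, had 13.7, 3.87, 4.27 and 5.08 from DMSO to 48 h. BMP and TGF-beta pathway genes had 3 of 8 called again. The receptor gene BMPR1A, the ligand gene GDF5 and ID4 were 96 h only. The ligand genes BMP7 and GDF6 and the antagonist gene GREM1 were 48 h only, and ID1, ID2 and ID3 were called at both times. Apoptosis genes had 2 of 9 called again (MCL1 and BIRC5), and FGF and growth factor receptor genes 2 of 8 (FGFR1 and FGFR2).

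Lists of developmental genes held many called at both times, against 8.48% of all genes. Of 39 HOX genes, 20 were called at both times, HOXA9, HOXA11 and HOXD11 at 48 h alone, and HOXC13 and HOXD8 at 96 h alone. Neighbouring HOX genes can share a region, so these counts are not independent. Among 20 genes that earlier work ties to SS18::SSX, 13 were called at both times, including TWIST1, ZIC2, BCL2 and PDGFRA. LMX1B and CNR1 were called at 48 h alone and FGFR2 at 96 h alone. The fusion was at 17 of the 20 at 48 h, against 3732 of all 20037 protein-coding genes. Of 50 developmental transcription factor genes, of which SOX2 is also among those 13, 19 were called at both times, NKX2-2 at 48 h alone, and 5 at 96 h alone, among them PAX7, SIX3, GATA4 and TBX18. These 4 carried the fusion in the 48 h list. Among 28 replication-dependent histone genes on chromosomes 1 and 6, which provide histones for DNA replication, 27 were called in DMSO and at every time of WA-68. Histone genes can share a region as well, such as H1-5 with H2AC16 and H3C4 with H4C5, so the 27 are not separate sites. None of 28 olfactory receptor genes, which are silent outside the nose, was called in any list.

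Genes of the remodellers themselves were read as well, since BRD9 is the target of WA-68. BRD9 had a GLTSCR1 call at its ends in DMSO alone (4.41), and BICRA, which encodes GLTSCR1, at 12 h alone (5.21). BICRAL, the paralogue of BICRA, was called in all 5 GLTSCR1 lists, with 7.08 at 48 h and 6.79 at 96 h, and so was SS18, with 4.39 and 4.07. Of 27 subunit genes 6 were called at both times and SMARCC1 and BCL7C at 96 h alone, which is 2 of the 14 that were in DMSO and not at 48 h. For all protein-coding genes the shares were 8.48% at both times, 6.68% at 96 h alone and 25.0% called again.

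Promoter sequences were compared over the 300-base windows, of which 829 were called in DMSO and at 96 h but not at 48 h, 912 at both times, and 478 at 48 h and not at 96 h. A region that ends just short of a window leaves it uncalled, so some windows differ in class by a few bases. The 10 motifs searched were the 3 above and the E-box CACGTG, the NRF1 motif, CRE TGACGTCA, AP-1 TGANTCA, NFY CCAAT, YY1 AAGATGGCG and the SRF box, on both strands and with overlaps allowed. The ETS-type motif was found in 19.3% (16.7 to 22.2) of the 96 h only windows in DMSO, 12.5% (10.4 to 14.8) of windows of both times and 62 of the 478 windows of 48 h only. Windows called in DMSO and at neither time held it in 19.8% of 3005 cases, so the letters do not set apart the sites called again from DMSO sites at large. TATAAA was found in 6.39% (4.83 to 8.28) of the 96 h only windows in DMSO and in 100 of the 912 windows of both times (interval 9.01 to 13.2%), and the SRF box in 0.724% (0.266 to 1.57) and 2.63% (1.69 to 3.89). Windows called in DMSO and at neither time held TATAAA in 4.19% and the SRF box in 1.10%, and all windows in 9.50% and 1.25%. In the 96 h only windows in DMSO and those of both times, NFY was found in 33.3% and 34.3%. The E-box was found in 11.2% and 8.44%, SP/KLF in 68.8% and 64.6%, and AP-1 in 4.70% and 3.40%. In the same order of motifs, all windows had 34.7%, 8.32%, 56.3% and 6.16%. Windows called in DMSO and at neither time had 32.1%, 12.2%, 74.2% and 3.73%. The 96 h only windows in DMSO and those of both times each had a median GC content of 64.3%, with 62.3% over all windows. The fusion at 48 h overlapped 23.6% of the 96 h only windows in DMSO, 47.9% of those of both times and 52.7% of those of 48 h only.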

How the data were processed

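GLTSCR1 and fusion ChIP-seq libraries of HS-SY-II cells were used as deposited peak lists, 1 per library. Positions are on GRCh38, and the tools named are MACS2, BWA, Picard, SAMtools, deepTools, cutadapt, Trim Galore, FastQC and bcl2fastq, per the submitters' processing notes. Their versions, order and settings were not given in the sources used here. The authors deposited for each peak a fold enrichment (a linear ratio) and −log10 p and −log10 q values, of which the lowest −log10 q was 3.00 in every list. The 5 input libraries were not analysed here. Entries with the same coordinates were joined and carry the strongest summit's fold, used only within its own list. Overlaps were computed with Python 3.11.15, pandas 2.3.3, numpy 2.4.6 and scipy 1.17.1, and the code was checked on simulated regions. Differences at like fold are averages of within-decile differences.

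Gene spans came from a GRCh38.p14 table without strand. Annotated starts were at hand for 79.1% of the 20037 protein-coding genes, under the 80% set for using starts alone, so both ends were used. A gene's fold is that of the strongest region overlapping either window. The classes, the 19 gene lists (526 entries) and the rules were chosen with earlier results of these data known. Named genes were the 8 strongest of each class (6 for both times), up to 4 members of each list in each class, and BRD9, BICRA, BICRAL and SS18; some are given only in counts, and a few are not reported here. Other list members named, and the genes whose promoters are printed, were chosen after their values were seen. Alternatives were 50% overlap, strongest summits within 250 bp, −log10 q of at least 5, a 96 h list of equal length, merging within 500 bp, all contigs, windows of 500 bp and 3 kb, and starts alone. With 1 library in each group, no test between times could be made.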

Additional observations from a re-analysis of the deposited data

How the results depend on the processing

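Requiring 50% of the shorter region to overlap gave 64.4% of 48 h regions kept and 55.3% of 96 h regions already called at 48 h, with 44.3% of 96 h only and 46.2% of 48 h only regions in the DMSO list and 46.8% of 96 h only regions with the fusion. Strongest summits within 250 bp gave 50.7%, 44.3%, 28.3%, 27.9% and 17.0% in the same order, where regions with several summits can fail because another one was strongest. Merging within 500 bp gave 70.4%, 60.4%, 45.3%, 45.8% and 44.0%. With equal list lengths the kept shares were 65.7% and 63.4%, 51.5% of 48 h only regions were in DMSO, and 46.4% of 96 h only regions carried the fusion, which was 45.3% with −log10 q of at least 5. The gene-end share of 96 h only regions was 32.3% with windows of 3 kb, 18.7% with 500 bp and 20.8% with starts alone. Without 96 h only regions within 1 kb of a 48 h region, an alternative chosen after seeing the data, 43.4% were in DMSO, 26.0% at gene ends and 38.3% with the fusion. In each planned setting run except all contigs, for which shared regions were not computed, 96 h only regions were more often at gene ends and less often with the fusion or in DMSO than shared 96 h regions. The gene counts lay between 1079 and 1524 for 96 h only and between 423 and 628 for 48 h only. No paired analysis was possible because each group held 1 library, and leaving out a library was not possible for the same reason. Depth is unknown from peak lists, which limits every statement on missing calls.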

Other observations

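Collagen and matrix genes, which build the extracellular matrix, had 6 of 24 members called at 48 h and 6 at 96 h. Of all 20037 protein-coding genes, 2230 were called at 48 h, 3037 at 96 h and 1699 at both. COL1A1, COL6A1, DCN, LUM and MMP2 were called at both times. DCN, the decorin gene on chromosome 12, lay in a region of 14.3 kb at 48 h and 15.0 kb at 96 h, and LUM, the lumican gene, in one of 32.2 kb and 33.1 kb. COL3A1 was called at 48 h alone (fold 4.23) and in no earlier GLTSCR1 list, and COL18A1 at 96 h (3.78) and in DMSO (4.21). Among the 1566 regions with a 96 h fold of at least 8.41, 108 were 96 h only, of which 42 were in the DMSO list, 25 lay at gene ends and 22 were in no earlier list. Of the 1368 regions with a 48 h fold of at least 8.34, 49 were 48 h only, with 16 in the DMSO list and 4 at gene ends.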
